A study of Mus musculus with 8 samples.

Results

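The group of 9 genes described here joins the receptors for thyroid hormone and corticosteroids to the genes that work closest to them, in H3K27Ac ChIP-Seq of mouse ventricles. Its members are *Thra*, *Thrb*, *Nr3c1*, *Nr3c2*, *Rxra*, *Rxrg*, *Dio2*, *Klf9* and *Klf15*, chosen by name, with earlier results of these data known. A peak was counted for a member when its centre lay nearest to a curated RefSeq transcription start of that gene, which gave 61 of 45980 peaks with a nearest gene. These 9 genes stand among 15761 genes that were nearest to at least 1 peak.

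H3K27Ac, acetylation of lysine 27 of histone H3, marks active promoters and enhancers, and does not itself measure transcription. Ventricles were taken at postnatal day 7 from 2 Arid1a f/f Control mice and 2 aMHC-Cre;Arid1a f/f cKO littermates, each with a ChIP library and an input library, 8 libraries in all. Mice of both groups carried the floxed *Arid1a* alleles, which encode a DNA-binding subunit of the BAF chromatin remodelling complex, and the αMHC-Cre transgene was the difference between the groups. This transgene is active in cardiomyocytes, so that fibroblasts, endothelial cells and leukocytes of the same ventricles keep *Arid1a*, and the profile does not itself check the deletion. The deposited values are group means of normalized reads for each peak, without values of single hearts, and the depth of each library is unknown. The cardiomyocyte identity of the tissue was visible in its markers, such as *Myh6*, the αMHC gene. Its peak held 3591 normalized reads in control and 3929 in *Arid1a cKO* hearts. Of 8 cardiomyocyte markers, 2, *Myh6* among them, had more summed reads in *Arid1a cKO* hearts and 6 had fewer. No spread between hearts could be given, no test was made, and a difference from control was counted only when it reached 2-fold. In whole ventricles, a change in the share of a cell type and a change of the mark within its cells cannot be told apart.

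Thyroid hormone and corticosteroids both promote maturation of the heart around birth. The deiodinase DIO2 converts thyroxine to the active hormone T3, which binds the receptors THRA and THRB, usually paired on DNA with a retinoid X receptor such as RXRA or RXRG. Corticosteroids bind the glucocorticoid receptor NR3C1 and the mineralocorticoid receptor NR3C2, and KLF9 and KLF15 are zinc finger factors whose genes are known targets of glucocorticoid signalling.

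The hormone receptor genes did not move as a block. Of their 61 peaks, 6 (9.84%) were at least 2-fold lower in *Arid1a cKO* hearts and 2 (3.28%) were at least 2-fold higher, while 53 reached neither limit. Over all peaks, 10.6% were lower and 4.57% were higher by the same limit, so both shares lay near the background. The median log2 difference, *Arid1a cKO* minus control, was 0.04 over the member peaks and 0.01 over all peaks. *Nr3c1* with 23 peaks and *Rxra* with 13 weigh most in the member median. With reads summed by gene, 7 of 9 differences were below 0 and 2 above, with a median of -0.17. Over all 15761 genes, 51.0% had a summed difference of 0 or below. The 6 lower peaks belonged to *Rxrg*, *Klf15* and *Nr3c1*, and the 2 higher peaks to *Dio2* and *Nr3c1*. The plot of reads at each peak shows that these 8 peaks were not the strongest of the group.

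**Figure D1:**
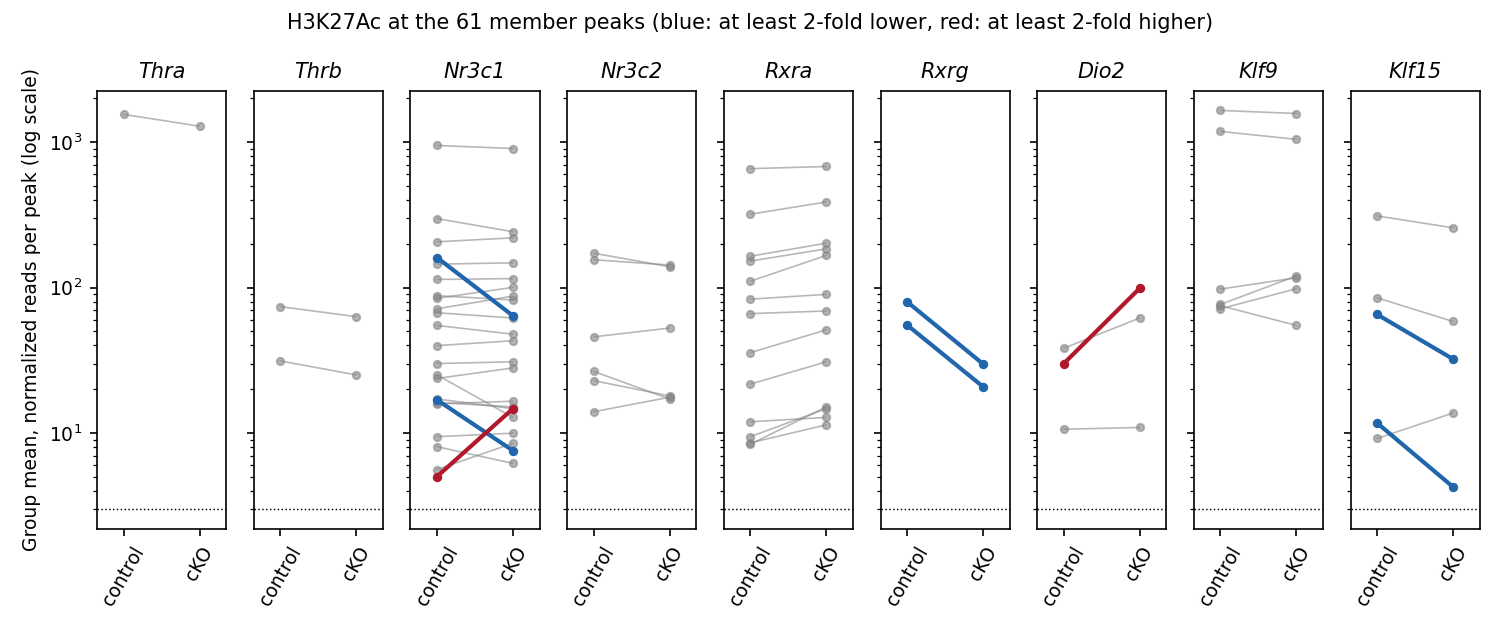
Each line joins the control and Arid1a cKO group means of normalized reads (log scale) at 1 peak of the gene named above the panel, with blue lines for peaks at least 2-fold lower, red lines for peaks at least 2-fold higher, grey lines for the other 53 and a dotted line at 3 reads. Both Rxrg lines slope down, all 13 Rxra lines slope up slightly, and the strongest peaks of Klf9, Thra and Nr3c1 differ by at most 1.21-fold.

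The most complete difference was that of *Rxrg*, which encodes retinoid X receptor gamma, the form found mainly in muscle and parts of the nervous system. Its peak over an internal transcription start, at chr1:167617595-167618968, held 79.9 normalized reads in control and 29.9 in *Arid1a cKO* hearts. Its other peak, at chr1:167588111-167589752 and 9.43 kb before the first start, held 55.3 and 20.8 normalized reads. Both peaks were therefore lower by nearly the same factor, 2.68-fold and 2.66-fold, with log2 differences of -1.42 and -1.41. Among 3090 genes with 2 peaks, both were at least 2-fold lower in 60 (1.94%), a comparison not planned in advance. Of the 9 member peaks that covered a start of their gene, the *Rxrg* peak was the single one lower by 2-fold, against 1.7% of 12022 such peaks genome-wide.

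The sequences at these *Rxrg* peaks are shown because both elements were past the 2-fold limit. They are the 250 bases that precede the internal start (chr1:167618015-167618264) and the central 300 bases of the distal peak (chr1:167588782-167589081), both on the plus strand of GRCm38.p6, the assembly of mm10, the first from the RefSeq promoter table and the second from the RefSeq genome. Capitals mark the receptor hexamer AGGTCA in the first and the letters CCACACCC, a CACCC box of the kind that KLF factors can bind, in the second.
Rxrg internal promoter: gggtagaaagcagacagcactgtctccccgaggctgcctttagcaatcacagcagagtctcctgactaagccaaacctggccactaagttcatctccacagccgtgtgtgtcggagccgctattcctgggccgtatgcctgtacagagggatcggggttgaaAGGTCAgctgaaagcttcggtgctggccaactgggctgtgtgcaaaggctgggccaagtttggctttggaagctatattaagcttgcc
Rxrg distal peak centre: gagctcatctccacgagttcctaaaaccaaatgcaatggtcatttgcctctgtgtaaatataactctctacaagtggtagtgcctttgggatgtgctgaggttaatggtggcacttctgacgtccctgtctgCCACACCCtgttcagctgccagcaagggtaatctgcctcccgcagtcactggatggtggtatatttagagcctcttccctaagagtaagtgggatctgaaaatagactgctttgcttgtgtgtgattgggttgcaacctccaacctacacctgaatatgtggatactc
The internal promoter had 55.2% GC and 7 CpG, close to the medians of 52.4% and 6 over 32851 RefSeq promoters. The 250 bases before the first start of *Rxrg*, at chr1:167598112-167598361, had no assigned peak over them.

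Peaks of other genes on the upstream side of *Rxrg* were mostly lower as well. Within 250 kb of the outermost *Rxrg* peaks, 5 of 6 peaks assigned to other genes had a difference below 0, with a median of -1.47. Of these 6, 3 were at least 2-fold lower, while peaks of *Aldh9a1* at -0.21 and 0.12 were nearer level. All 6 lay at chr1:167339987-167467958, with none on the other side of *Rxrg*. The largest of these differences, chosen after its value was seen, was at a peak of *Mgst3*, a glutathione transferase gene, with 129 normalized reads in control and 4.26 in *Arid1a cKO* hearts. The difference at *Rxrg* was thus accompanied by lower reads at several more distant elements on that side. Summed over its peaks, *Rxrg* went from 135 to 50.7 normalized reads, and 438 of 15761 genes (2.78%) had a summed difference as low.

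*Rxra*, which encodes the retinoid X receptor of most tissues, differed in the opposite direction but by much less. All 13 of its peaks had more reads in *Arid1a cKO* hearts than in control, with log2 differences from 0.05 to 0.85, and none reached 2-fold. Its strongest peak, over the main start at chr2:27675666-27681158, was nearly level at 657 and 680 normalized reads. Intronic peaks carried more of the difference, such as the one at chr2:27732067-27735700, named after its value was seen, with 111 normalized reads in control and 167 in *Arid1a cKO* hearts. Summed over all 13 peaks, reads went from 1649 to 1917, a log2 difference of 0.22. Among 748 genes with at least 10 peaks, 12 (1.60%) had every difference above 0 and 10 had every difference below 0. This comparison was not planned in advance.

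The surroundings of *Rxra* leaned the same way. Of 30 peaks of other genes within 250 kb of the outermost *Rxra* peaks, 24 had a difference above 0, and the median was 0.33. Of the 30, 3 were at least 2-fold higher and 0 lower. Many of these peaks belong to *Col5a1*, a collagen gene of connective tissue, which neighbours *Rxra*. The peaks at least 2-fold higher were at *Col5a1* (log2 1.16 and 1.06) and *Wdr5* (1.6). Over 8 fibroblast marker genes, all 8 summed differences were above 0, from 0.25 to 0.60, while 6 of 8 cardiomyocyte markers were below 0, with a median of -0.17 over those genes. Summed differences were also above 0 for 6 of 6 leukocyte, 5 of 7 endothelial and 4 of 6 smooth muscle and pericyte marker genes with a peak. The part that such markers have in the *Rxra* and *Dio2* values was not tested.

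The main *Rxra* promoter is shown for its composition, which differs from that of the internal *Rxrg* promoter. The peak over it was nearly level (log2 difference 0.05), and a link between composition and difference was not tested. The 250 bases before the start of *Rxra* (chr2:27676951-27677200, plus strand, GRCm38.p6, RefSeq) had 81.2% GC and 40 CpG, and held none of the motifs searched.
Rxra main promoter: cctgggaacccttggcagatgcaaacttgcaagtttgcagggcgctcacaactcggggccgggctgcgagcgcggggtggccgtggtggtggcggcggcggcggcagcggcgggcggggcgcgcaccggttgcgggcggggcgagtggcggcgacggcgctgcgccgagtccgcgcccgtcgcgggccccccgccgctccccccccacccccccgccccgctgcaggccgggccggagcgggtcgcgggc

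*Dio2*, which supplies T3 inside cells, had the largest higher difference of the group. The peak over its start, at chr12:90737691-90739474, held 30.1 normalized reads in control and 99.0 in *Arid1a cKO* hearts, which is 3.29-fold higher (log2 1.72). Only 1.16% of all peaks over a start were at least 2-fold higher, and this was the 1 such member peak of 9. The peak 119 kb before the start went from 38.3 to 61.8 normalized reads, short of the limit, and the third, 321 kb downstream, held 10.6 and 10.9. Summed reads were 79.0 in control and 172 in *Arid1a cKO* hearts, 2.17-fold higher, and 173 genes (1.10%) had a summed difference as high. The sum depends on the assignment: with the nearest protein-coding start it took in 2 more distal peaks and the log2 difference went from 1.12 to 0.23, and with predicted transcripts included the centre of the peak over the start lay nearest to the start of *Gm26512*. Within 250 kb of the outermost *Dio2* peaks, the 3 peaks of another gene had differences from -0.05 to 0.79, so no neighbour reached the limit.

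*Dio2* had the lowest signal per length in control, 15.6 normalized reads per kb, and 33.9 in *Arid1a cKO* hearts. Its promoter is shown because the higher peak lies on it: the 250 bases before the start, chr12:90739039-90739288, printed on the minus strand in the direction of transcription (GRCm38.p6, RefSeq). This stretch had 41.6% GC and 2 CpG, and none of the motifs searched.
Dio2 promoter: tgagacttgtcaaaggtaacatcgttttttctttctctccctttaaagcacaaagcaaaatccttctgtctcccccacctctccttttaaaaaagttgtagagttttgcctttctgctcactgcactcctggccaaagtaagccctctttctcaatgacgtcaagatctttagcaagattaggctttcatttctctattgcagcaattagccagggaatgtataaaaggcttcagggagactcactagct

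The 3 peaks nearest to the thyroid hormone receptor genes were short of 2-fold. *Thra*, which encodes the main thyroid hormone receptor of cardiomyocytes, had 1 assigned peak of 17.6 kb, over its start and the first part of the gene (chr11:98739572-98757152), with 1552 normalized reads in control and 1287 in *Arid1a cKO* hearts, a log2 difference of -0.27. *Thrb*, which encodes the second thyroid hormone receptor, had a promoter peak at chr14:17659214-17661738 with 74.0 and 63.1 normalized reads, and an intronic peak with 31.3 and 25.1. These 3 peaks all had fewer reads in *Arid1a cKO* hearts, by 1.17-fold to 1.25-fold, which is within the range of the central 50% of all peaks (-0.33 to 0.30 on the log2 scale). Per length, *Thra* held 88.3 normalized reads per kb in control and *Thrb* 26.9, so the *Thra* signal was the denser in these ventricles. The rest of the *Thra* gene held peaks nearest to *Nr1d1*, the gene of the circadian repressor REV-ERBα that overlaps its end. One of them, chr11:98762378-98763662, was past the limit, with 19.0 normalized reads in control and 7.57 in *Arid1a cKO* hearts (log2 -1.33). With overlap of the gene, *Thra* had 4 peaks and a summed log2 difference of -0.31. Of 33 peaks of other genes within 250 kb of the assigned *Thra* peak, 4 were at least 2-fold lower and 0 higher, with a median of -0.11. The 4 within 250 kb of the outermost *Thrb* peaks had differences from -0.62 to -0.07.

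**Figure D2:**
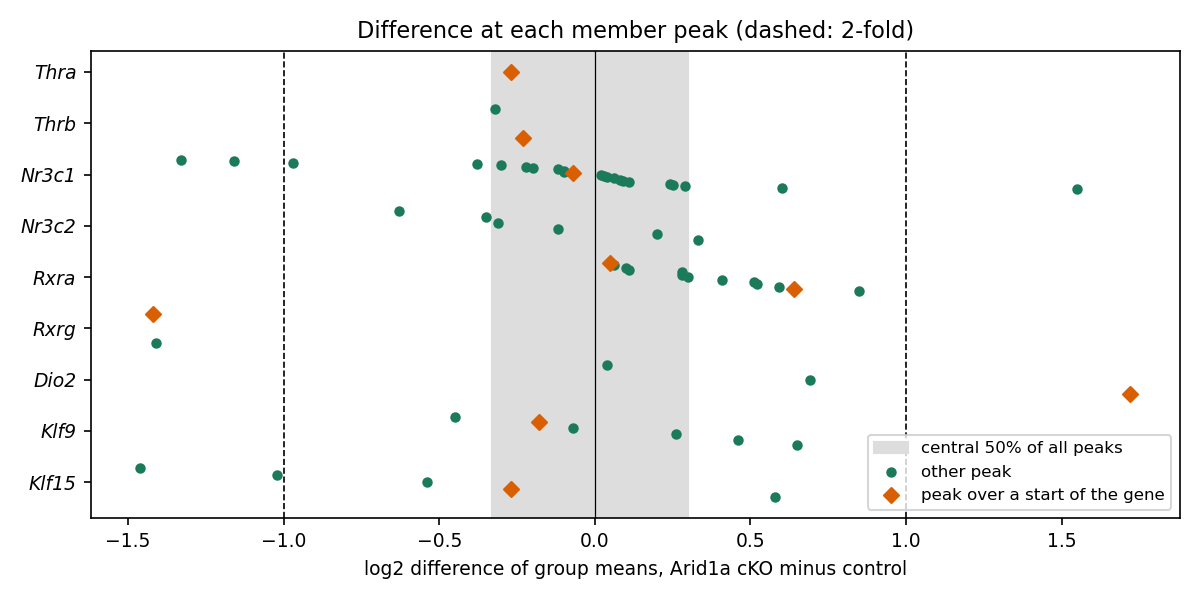
Each symbol is 1 peak, placed by its log2 difference of group means (Arid1a cKO minus control), with diamonds for peaks over a start of the gene, circles for the other peaks, a grey band for the central 50% of all peaks (-0.33 to 0.30) and dashed lines at 2-fold. The Rxrg peaks lie near -1.4 and the Dio2 peak over its start at 1.72, while the receptors Thra, Thrb and Nr3c2 stay between the dashed lines.

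*Nr3c1*, the glucocorticoid receptor gene, had the most peaks of any member, 23, and its promoter was level. The promoter peak at chr18:39486223-39492369 covered a start and held 949 normalized reads in control and 904 in *Arid1a cKO* hearts, a log2 difference of -0.07. Summed over 23 peaks, reads went from 2452 to 2281, a log2 difference of -0.10, and 11 differences were below 0 and 12 above.

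The 3 *Nr3c1* peaks past 2-fold all lay within the neighbouring gene *Arhgap26*. At chr18:39322657-39326030, 165 kb behind the nearest start of *Nr3c1*, reads were 161 in control and 64.0 in *Arid1a cKO* hearts, 2.51-fold lower. At chr18:39298253-39299315 they were 16.9 and 7.57, 2.23-fold lower. Between these lies chr18:39302326-39303478, with 5.03 and 14.7 normalized reads, 2.93-fold higher, so that peaks less than 25 kb apart differed in opposite directions, 2 of the 3 at low read numbers. Of the 23 peaks, 14 lay inside *Arhgap26* and summed to a log2 difference of -0.25, whereas the other 9 summed to -0.02, with differences from -0.22 to 0.60 and none at the limit. Nearness to the *Nr3c1* start alone ties these peaks to the receptor gene.

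**Figure D3:**
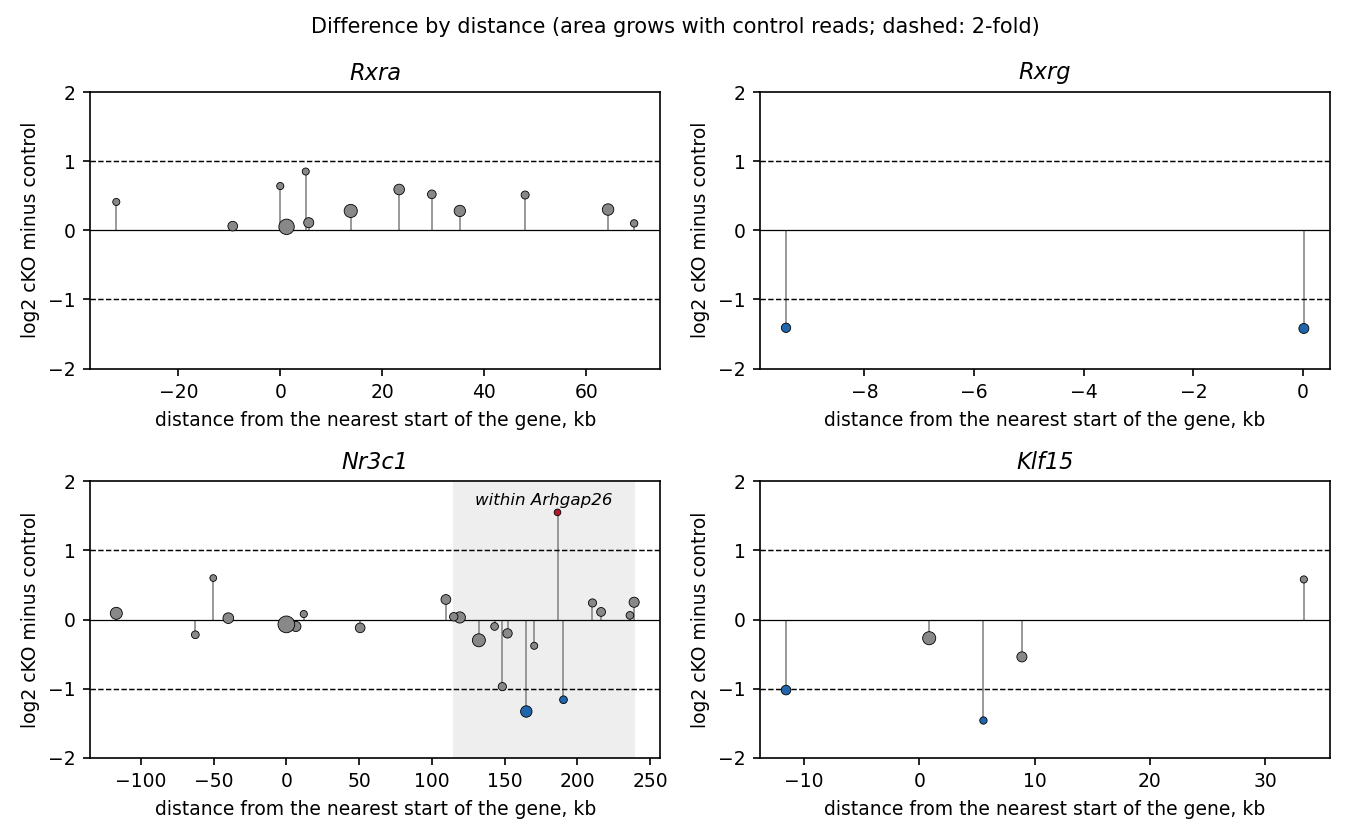
Log2 difference of each peak (Arid1a cKO minus control) against its distance in kb from the nearest start of Rxra, Rxrg, Nr3c1 or Klf15, with larger circles for more control reads, blue and red circles past the dashed 2-fold lines and a grey span for the stretch within Arhgap26. The 3 Nr3c1 peaks past the lines all fall in the grey span, and all 13 Rxra peaks lie above 0.

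*Nr3c2*, the mineralocorticoid receptor gene, had 6 peaks nearest to its start, all within its introns. The strongest of them, chr8:77132221-77135144, held 172 normalized reads in control and 139 in *Arid1a cKO* hearts, a log2 difference of -0.31. Differences ran from -0.63 to 0.33 with 4 of 6 below 0, and none reached 2-fold. The peak that covered the *Nr3c2* start, chr8:76898604-76902802, had its centre nearest to *Gm10649*, and held 189 normalized reads in control and 148 in *Arid1a cKO* hearts. Another peak within the gene, chr8:77231746-77233584, was nearest to *Arhgap10* and went from 99.0 to 52.7 normalized reads, a log2 difference of -0.91. Both are outside the 6 and, like them, short of 2-fold. The summed reads of the 6 peaks were 437 and 388, a log2 difference of -0.17, which became -0.30 with overlap of the gene in place of the nearest start.

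The KLF genes had different profiles. *Klf9* carried the densest signal of the group, with 147 normalized reads per kb in control and 141 in *Arid1a cKO* hearts. Its strongest peak, chr19:23132556-23138453, held 1652 and 1574 normalized reads, and the peak over its start held 1184 and 1046. The 4 weaker *Klf9* peaks lay farther upstream and had differences from -0.45 to 0.65, 3 of them above 0. None of the 6 peaks reached 2-fold, and the sum differed by -0.07 on the log2 scale. A peak inside *Klf9* that was nearest to *Mir1192* held 134 and 125 normalized reads. Without the 2 wide strongest peaks, the sum of the other 4 differed by 0.28, in the opposite direction.

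*Klf15*, a regulator of metabolic genes in heart muscle, was lower at 4 of its 5 peaks and past 2-fold at 2. Its strongest peak, over the start at chr6:90462038-90464825, held 311 normalized reads in control and 258 in *Arid1a cKO* hearts, a log2 difference of -0.27. The peak 11.6 kb before the start, chr6:90450314-90451701, held 65.3 and 32.2 (2.03-fold lower), just inside the limit. The intronic peak at chr6:90467686-90468587 held 11.7 and 4.26 (2.75-fold lower), a low number of reads. The next intronic peak was short of the limit, at 85.0 and 58.5 normalized reads, and the most distant one had slightly more reads in *Arid1a cKO* hearts, 13.7 against 9.19. Summed reads were 482 and 366, a log2 difference of -0.40. Among 18 peaks of other genes within 250 kb of the outermost *Klf15* peaks, 5 were at least 2-fold lower and 0 higher. The median of the 18 was -0.40 (log2).

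The centre of the lower intronic *Klf15* peak is shown because it had the largest fold difference among the lower member peaks. It spans chr6:90467987-90468286 on the plus strand of the GRCm38.p6 RefSeq genome, and capitals mark CCACACCC, which is read here on the opposite strand.
Klf15 intronic peak centre: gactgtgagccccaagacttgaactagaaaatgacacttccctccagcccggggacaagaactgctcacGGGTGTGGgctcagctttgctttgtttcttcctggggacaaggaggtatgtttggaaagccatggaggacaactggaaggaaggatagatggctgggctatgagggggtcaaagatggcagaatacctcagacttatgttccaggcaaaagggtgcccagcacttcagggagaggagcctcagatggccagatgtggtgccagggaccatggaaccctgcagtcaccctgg

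Short receptor motifs were searched on both strands of every peak. The hexamer AGGTCA, bound by thyroid hormone and retinoid X receptors, occurred in 77.0% of member peaks and 70.1% of all peaks, or 0.718 and 0.739 times per kb. The hexamer AGAACA of the corticosteroid receptors occurred in 80.3% and 75.9%. The box CCACACCC was found in 14 of 61 member peaks (23.0%) and in 19.3% of all peaks. These short motifs were common in both sets, and the member peaks had a median GC content of 47.2%, against 48.1% over all peaks.

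Longer motifs were rare. The direct repeat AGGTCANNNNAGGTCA, on which thyroid hormone receptors pair with retinoid X receptors, had 0 exact matches in 61 member peaks, which allows a share of up to 4.92%, and occurred in 0.181% of all peaks. The direct repeat AGGTCANAGGTCA had 1 match, in the *Rxra* peak at chr2:27772936-27776777, against 0.539% of all peaks. The exact inverted repeat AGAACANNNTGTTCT had 0 matches in member peaks and occurred in 0.087% of all peaks. The estrogen-related receptor motif TCAAGGTCA, which contains AGGTCA, was found in 3 member peaks (4.92%) and 7.34% of all peaks.

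A relaxed inverted repeat, GNACANNNTGTNC, was added after the data were seen. It was found in 7 member peaks (11.5%, 95% Wilson interval 5.67 to 21.8%) and in 4.72% of all peaks. With 8 matches, that is 0.0495 per kb in member peaks and 0.0207 in all. The interval takes the peaks as independent, though many share a gene, and enrichment was not tested. *Klf15* held 3 of the matches and *Klf9* 2, with 1 each in *Thra*, *Rxra* and *Nr3c1*. The matches in *Klf15* and *Klf9* are shown because these genes are known to respond to glucocorticoids. They come from the plus strand of the RefSeq genome, with the match in capitals, and their matched bases lie at chr6:90471390-90471402, chr6:90472254-90472266, chr6:90464658-90464670, chr19:23057013-23057025 and chr19:23135093-23135105.
Klf15 intronic peak, first match: ctgcagtgGAACATCCTGTTCcagagtgg
Klf15 intronic peak, second match: tggaatgaGGACAGCTTGTTCtctggcat
Klf15 peak over the start: gggtcctgGGACACCATGTTCcctgcatt
Klf9 upstream peak: acagaaggGAACATTCTGTACtcagcctg
Klf9 strongest peak: ggtaaaaaGGACAAACTGTTCcacaacaa
The peaks with these matches had log2 differences of -0.54 and -0.27 (*Klf15*), 0.65 and -0.07 (*Klf9*). None of these 4 peaks was past 2-fold, whereas the *Nr3c1* match lay in its single higher peak (2.93-fold). A match says nothing of whether a receptor was bound.

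Genes around the receptors in the same pathways were described from lists, each counted by genes with at least 1 peak past 2-fold. Over all 15761 genes, 19.7% had at least 1 lower peak and 10.7% at least 1 higher peak, and genes with many peaks reach either more readily. Among 6 genes of thyroid hormone transport and deiodination with a peak, 2 had a lower peak and 1 a higher peak. The thyroid hormone transporter gene *Slco1c1* had both, and its lower peak held 35.3 normalized reads in control and 10.9 in *Arid1a cKO* hearts.

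Thyroid hormone target genes of heart muscle included both directions. Of 20 genes, 8 (40%) had a lower peak and 5 (25%) a higher peak, and the median over 70 peaks was -0.08. By peaks, 14.3% were lower and 7.14% higher, against 10.6% and 4.57% of all peaks. The pacemaker channel gene *Hcn2* had a peak with 98.4 normalized reads in control and 17.03 in *Arid1a cKO* hearts (5.78-fold lower). A peak of *Hcn4*, the main pacemaker channel gene, went from 24.9 reads to below the floor of 3, at least 8.31-fold lower, and one of the sodium pump subunit gene *Atp1b1* from 30.7 to 4.72. The peak of *Nppa*, which encodes atrial natriuretic peptide, was 4.72-fold higher, with 49.5 normalized reads in control and 234 in *Arid1a cKO* hearts. These genes were named for the largest peak differences of the list. By summed reads, 14 of the 20 genes were below 0 and 6 above, with a median log2 difference of -0.18. Among them, *Myh6* (0.13), *Myh7* (-0.12) and *Atp2a2* (-0.07) were near level.

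Of the corticosteroid lists, only that of target genes had both lower and higher peaks. Of 11 genes of corticosteroid metabolism and receptor chaperones, 2 had a lower peak, the chaperone genes *Stip1* (85.0 to 28.4 normalized reads) and *Hsp90ab1* (33.4 to 15.1), and 0 had a higher one. Of 24 corticosteroid target genes, 6 (25%) had a lower peak and 7 (29.2%) a higher one. By peaks, 10.8% of their 139 were lower and 7.19% higher, against 10.6% and 4.57% of all peaks. Examples are *Tsc22d3*, the glucocorticoid-induced leucine zipper, with a peak of 35.8 and 4.76 normalized reads, and *Fbxo32*, a muscle ubiquitin ligase, with 30.5 and 7.11. A weak peak of *Ccn2*, a matricellular growth factor gene, had 3.73 reads in control and 14.2 in *Arid1a cKO* hearts.

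Coregulators and related factors also had peaks in both directions. Among 16 nuclear receptor corepressors and coactivators, 6 had a lower peak and 1 a higher one. They included *Ppargc1a*, the coactivator of mitochondrial genes (22.2 to 4.76 normalized reads), *Ncoa2*, a steroid receptor coactivator (28.2 to 7.62), and the corepressor gene *Nrip1*, at 47.5 in control and below 3 in *Arid1a cKO* hearts. Among 30 other nuclear receptor genes, 9 had a lower and 4 a higher peak, and of 15 other KLF genes, 8 had a lower and 2 a higher peak. The vitamin D receptor gene *Vdr* had a single peak, of 84.4 and 10.9 normalized reads, a larger fold difference than that of any member. By peaks, 12.4% of the coregulator peaks, 10.6% of the other nuclear receptor peaks and 16.1% of the other KLF peaks were lower, against 10.6% of all peaks and 9.84% of the members. The higher shares were 1.03%, 4.26% and 2.30%, against 4.57% of all peaks.

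**Figure D4:**
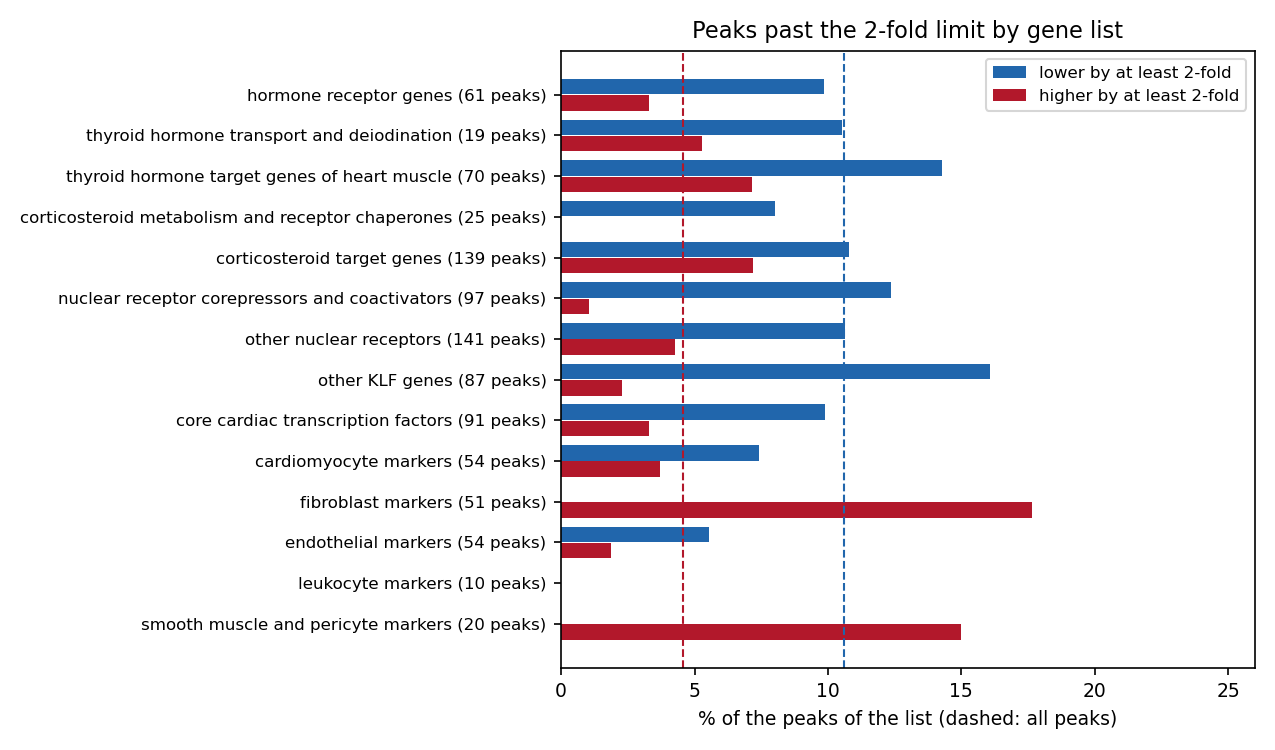
Bars give the percent of peaks of each gene list that were at least 2-fold lower (blue) or higher (red) in Arid1a cKO than in control group means, with dashed lines for all 45980 peaks (10.6% lower, 4.57% higher). The hormone receptor genes lie just under both lines (9.84% and 3.28%), and the fibroblast markers have 17.6% higher and 0 lower.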

How the data were processed

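ChIP-Seq reads were aligned by the authors with BWA (0.7.17-r1188) on the mm10 build, and H3K27Ac peaks were called with HOMER (the submitters' processing notes list 4.11) against inputs. The authors contrasted the groups by DESeq2 1.24.0 within DiffBind 2.12.0. Their deposited table holds log2 mean normalized reads of each peak, for all samples together and for each group. It also holds a fold change, a p-value and an FDR of the authors' own comparison, which were not used. It has 0 columns of per-sample values, so depth is unknown, nothing was tested, and counting intervals cover counting error only. How input was treated in the values is not given in the sources used here.

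Samples were grouped by genotype and antibody from the labels. Differences are the group log2 values of *Arid1a cKO* minus control, and sums add the values after conversion to reads. Called means 2-fold or more, and a fold against a group mean under 3 reads is a lower bound. The centre of each of 45980 placed peaks (7 of 45987 were on unplaced sequences) was matched to starts of 45756 curated transcripts of the GRCm38.p6 RefSeq annotation. A promoter peak has its centre from 1000 bp before to 100 bp after a start.

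Members and gene lists were chosen with earlier results of these data known. Named were all members, their peaks past the limit with at least 10 normalized reads in the higher group, the strongest peak of each gene, and at most 4 genes per list by the largest such peak. Where a peak's centre overlapped an exon, the 250 bases before the start were printed instead. RefSeq promoters were matched by symbol for 7 of 9 members. The steps were tested on simulated data, with Python 3.11.15, pandas 2.3.3, numpy 2.4.6, pysam 0.24.0 and matplotlib 3.10.9. Alternatives covered the fold limit, the assignment of peaks to genes, wide or weak peaks and the motif window. The relaxed repeat, the omission of peaks inside *Arhgap26* and the median over genes were chosen after seeing the data. The comparisons with genes of 2 peaks and of at least 10 peaks were not planned in advance.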

Additional observations from a re-analysis of the deposited data

How the results depend on the processing

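No paired analysis was possible because the deposited table holds only group means. For the same reason no heart could be left out. Of 129 alternative values, 111 stayed close to the reported one and 18 moved. This tally does not measure stability, because another fold limit cannot change a gene sum or a median. Members left without a peak by an alternative were not counted in it. The number of higher member peaks, 2 at the 2-fold limit, became 8 at a limit of 1.5 and 1 at a limit of 3, where the number of lower peaks became 0. It was 0 with the nearest start of any RefSeq transcript, where *Dio2* kept no peak, and 1 with overlap of the gene, within 50 kb of the start, or without the *Nr3c1* peaks inside *Arhgap26*. Without the widest 10% of peaks, the summed log2 difference was 0.34 for *Rxra* and 0.28 for *Klf9*, which turns the direction of *Klf9*, since its strongest peaks are wide. *Klf9* was at -0.18 with any RefSeq transcript. *Dio2* was at 0.23 with the nearest protein-coding start, and at 1.72 with overlap of the gene or within 50 kb, where a single peak was left. The median over genes of the gene medians was -0.22 (log2). The share of member peaks with an exact receptor motif of paired hexamers, 1.64%, became 0 in the central 500 bp, 91.8% with a hexamer alone and 11.5% with the relaxed repeat. At a limit of 1.5, 23 of 76 pathway genes had a higher peak, against 14 at 2-fold. Other causes of these shifts were not tested.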
